A study of Mus musculus with 3 samples.

Results

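The circadian clock genes described here are Clock, Npas2, Per1, Per2, Per3, Cry1, Cry2, Nr1d1, Nr1d2 and Dbp, 10 of the 27179 genes in the count table, taken by name through their NCBI gene IDs. The table covers 3 libraries, all of the same kind: stem and progenitor cells taken by sorting from epididymal fat of naïve wild-type C57B6 males, 3 mice aged 12 weeks. The sorted cells were alive, carried CD140a, Sca1 and PDPN, and lacked CD45, CD31 and Ter119. The labels give no second genotype, treatment or time point, no hour at which tissue was taken, and do not say whether a library was 1 animal, so p-values and SDs here measure the spread between these samples, part of which may be technical. Comparisons are therefore between genes within the libraries and of each library with the other 2.

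The clock of mammalian cells is a transcriptional feedback loop. CLOCK or its relative NPAS2, each paired with a partner of the same protein class, activates genes that carry E-boxes, among them the Per and Cry genes, whose proteins return to the nucleus and repress that activation. A further loop runs through the nuclear receptors encoded by Nr1d1 and Nr1d2 (REV-ERB alpha and beta), which repress genes with ROR response elements (ROREs), and an output branch runs through DBP and its relatives, which bind D-boxes. In mouse liver and other peripheral tissues, Dbp and Nr1d1 transcripts are known to peak in daytime and those of Npas2, Cry1 and Nfil3 late in the night or near dawn, so a level measured at a single unstated hour is a snapshot.

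The start-site windows of 3 members are shown because they hold the E-boxes and D-boxes through which the loop is known to act. Each is 250 bases before to 50 bases after an annotated start, from the RefSeq tables for GRCm38.p6, written 5′ to 3′ along the transcript. The Cry1 window is chr10:85185005-85185304 (minus strand), the Per1 window chr11:69098699-69098998 (plus strand) and the Per3 window chr4:151044616-151044915 (minus strand). Capitals mark an E-box and its 1-base variant in Cry1, an E-box in Per1 and both D-boxes in Per3.
Cry1: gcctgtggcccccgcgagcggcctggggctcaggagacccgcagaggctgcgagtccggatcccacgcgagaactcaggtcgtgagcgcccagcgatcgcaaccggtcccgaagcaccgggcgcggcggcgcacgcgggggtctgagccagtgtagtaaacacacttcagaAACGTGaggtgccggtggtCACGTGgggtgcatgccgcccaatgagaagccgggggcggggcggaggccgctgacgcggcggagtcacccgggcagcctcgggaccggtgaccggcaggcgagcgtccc
Per1: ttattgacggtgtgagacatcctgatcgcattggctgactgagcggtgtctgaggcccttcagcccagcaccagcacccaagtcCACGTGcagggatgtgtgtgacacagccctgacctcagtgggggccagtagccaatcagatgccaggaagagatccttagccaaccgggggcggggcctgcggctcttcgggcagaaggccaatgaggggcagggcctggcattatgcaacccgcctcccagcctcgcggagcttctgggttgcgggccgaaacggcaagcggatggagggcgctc
Per3: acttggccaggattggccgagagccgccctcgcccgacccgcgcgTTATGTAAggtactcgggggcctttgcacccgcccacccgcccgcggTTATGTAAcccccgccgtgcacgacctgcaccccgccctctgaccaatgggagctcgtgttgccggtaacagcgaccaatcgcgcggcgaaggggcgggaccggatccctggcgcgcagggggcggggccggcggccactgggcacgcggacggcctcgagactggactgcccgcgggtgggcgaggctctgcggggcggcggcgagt

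Windows were found for 9 of the 10 members, 12 in all, since Clock has 3 and Per1 has 2. Per2 had none. Motifs were searched on both strands as exact letters. The E-box CACGTG lay in 2 of the 12 windows, those shown for Cry1 (starting 60 bases before the start site) and Per1 (166 bases before), against 7.15% of all 32851 windows in the tables. The variant CACGTT, printed as AACGTG where it lies on the other strand, which shares its first 5 letters with the E-box but overlapped none of the matches here, lay in windows of Cry1, Cry2 and Nr1d1, against 4.68% of all windows. The D-box TTANGTAA lay in Per3 alone, at 205 and 158 bases before the start, against 2.32% of all windows. The RORE core TAGGTCA and the cyclic AMP element TGACGTCA were in 0 of the 12 member windows and in 2.61% and 1.79% of all windows. A match is only a match of letters, and its absence holds for this window alone.

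The libraries held 32813373, 25060096 and 27275888 counts. Levels are CPM, counts scaled to the TMM-normalised size of each library. A gene with no count may still have had up to 3, which are 0.0945, 0.119 and 0.107 CPM in libraries 1, 2 and 3. These limits and the intervals given for ratios cover counting error only, because PCR copies are not separate molecules. All 3 genes of the proteins selected in the sort were high, with 4386 to 5197 CPM in sum, and of the excluded proteins Pecam1 had at most 2 counts and Ptprc 5.42 to 15.8 CPM. No marker reached 1 CPM in every library among those of endothelium (0 of 7, summed 0.189 to 0.321 CPM), macrophages (0 of 8, 0.179 to 3.92), lymphocytes (0 of 6, 0.0357 to 0.119), adipocytes (0 of 6, 2.11 to 9.47), mesothelium (0 of 5, 0.119 to 0.473), mural cells (0 of 6, 5.89 to 9.11) and erythroid cells (0 of 5, 0 to 3.15). Adipoq, Cidec, Lck, Ms4a1, C1qb, Esam, Rgs5 and Hba-a1 were at 0 counts in every library. Above 1 CPM in at least 1 library were Csf1r, Cd68, Plin4, Lep, Retn, Kcnj8, Cspg4, Acta2, Notch3 and Hbb-bs. The highest of these values were 6.50 CPM for Retn in library 2 and 5.18 CPM for Cspg4 in library 3. Hba-a2 had 31 counts in library 1.

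Clock, Npas2, the 3 Per genes and both Cry genes reached 1 CPM or more in every library, the threshold called detected here, and Nr1d1, Nr1d2 and Dbp did not. Per3 passed with 1.73 CPM in its lowest library. That is 7 of 10 members, beside 35.0% of all 27179 genes and 43.7% of 20983 protein-coding genes. Within each bulk library, fewer cells that express a gene and less RNA per cell cannot be told apart. At 20 CPM, 4 members passed in every library, Clock, Per2, Cry1 and Cry2, beside 17.4% of all genes. The plot of the members by library shows this division.

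**Figure D1:**
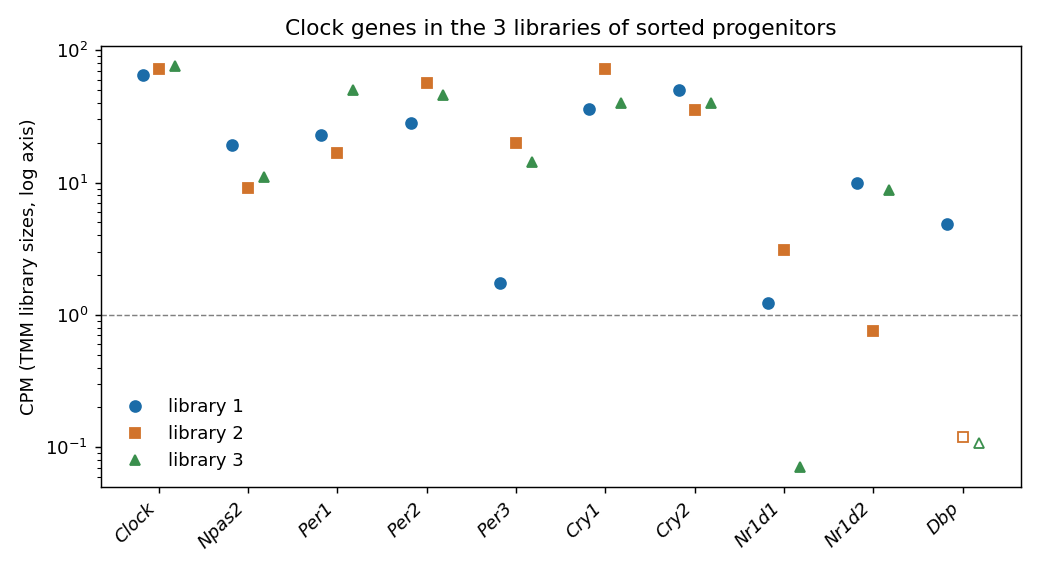
CPM (TMM library sizes, log axis) of the 10 clock genes in libraries 1 (circles), 2 (squares) and 3 (triangles); the dashed line is 1 CPM, and open symbols mark 0 counts, drawn at the CPM of 3 counts. Clock lies between 65.4 and 76.0 CPM in the 3 libraries, whereas Dbp has counts only in library 1.

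Clock, the gene of the DNA-binding activator and founding member of the loop, was the steadiest of the 10. It stood at 65.4, 71.8 and 76.0 CPM in libraries 1, 2 and 3, or 71.0 ± 5.34 CPM (SD, n = 3). The highest library exceeded the lowest by 1.16 times. Its SD on the log2(CPM + 0.5) scale was 0.11, at percentile 3.56 of the 6187 tested genes of 10 to 100 CPM. Npas2, whose protein can take the place of CLOCK, had 19.3, 9.11 and 11.0 CPM, a mean of 13.2 ± 5.44. Library 1 was the highest for Npas2 and the lowest for Clock. Per kilobase of exon, Clock stood above Npas2 in each library (4.76, 5.23 and 5.53 CPM per kilobase, against 4.04, 1.90 and 2.303 for Npas2), and their ranges did not overlap.

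The Per genes, which encode the PERIOD repressors, differed in level and in how much they varied. Per2 was at 28.3, 56.1 and 45.7 CPM (43.4 ± 14.0, SD, n = 3), with library 1 the lowest. Per1, which is also known as an early responder to glucocorticoids and to cyclic AMP signalling, was at 22.9, 16.8 and 50.1 CPM (29.9 ± 17.7), with library 3 standing above the others. Without library 3 the mean of Per1 per kilobase was 3.53 CPM per kilobase of exon, against 5.31 over all libraries. Per3, which is dispensable for the core rhythm in mice, was at 1.73, 19.9 and 14.2 CPM (11.9 ± 9.30). Library 1 had 55 Per3 counts, against 503 in library 2 and 397 in library 3. The ratio of library 2 to library 1 was 11.5 (95% exact counting interval 8.70 to 15.5). Its SD of 1.72 on the log2 scale lay at percentile 96.0 of genes of 10 to 100 CPM. Near 13.3 CPM, at the low end of that class, the median was 0.73 and the upper quartile 1.14.

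The Cry genes encode the cryptochromes, the stronger repressors of the loop. Cry1 was at 35.9, 71.7 and 39.9 CPM (49.2 ± 19.6, SD, n = 3), with library 2 the highest. Cry2 was at 50.2, 35.1 and 39.8 CPM (41.7 ± 7.71), with library 2 the lowest. The library with the most Cry1 was thus the one with the least Cry2.

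Nr1d1 and Nr1d2, the REV-ERB genes, were low in at least 1 library each, and not in the same one. Nr1d1 had 39, 78 and 2 counts, or 1.23, 3.09 and 0.0714 CPM. Library 2 exceeded library 3 by 43.3 times, with a wide 95% exact counting interval of 11.6 to 364. Nr1d2 had 317, 19 and 244 counts, or 9.99, 0.753 and 8.71 CPM. Here library 2 was the low one, and library 1 exceeded it by 13.3 times (95% exact counting interval 8.35 to 22.3). The library with most Nr1d1 was thus the one with least Nr1d2. The 3' end of Nr1d1 overlaps Thra on the opposite strand by 263 bases, 8.55% of its exon length, and Thra, a thyroid hormone receptor gene, was also highest in library 2 (35.3 CPM, against 10.5 in library 1 and 11.9 in library 3). The sources used here do not say that counting used strand, so reads of that overlap cannot be assigned to either gene, and its part in the Nr1d1 values was not tested.

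Dbp, the gene of a D-box-binding activator and a prominent clock output in many tissues, had 154 counts in library 1 and 0 in libraries 2 and 3. Its 4.85 CPM in library 1 was at least 40.8-fold higher than in library 2 and at least 45.3-fold higher than in library 3, each bound taken against 3 counts in that library. Of 12578 genes at 1 CPM or more in some library, 374 (2.97%) had 0 counts in both others. Exons of Dbp overlap those of Sphk2 on the opposite strand over 539 bases, 18.01% of its exon length and Sphk2 was at 2.58 CPM in library 1, against 5.23 in library 2 and 13.9 in library 3. The erythroid markers summed to 3.15 CPM in library 1, against 0.0793 CPM in library 2 and 0 CPM in library 3, with Hba-a1 at 0 in all, and the part of these markers and of the Sphk2 overlap in the Dbp value was not tested.

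Compared per kilobase of annotated exon, Cry1 led the members in each of the 3 libraries. Mean levels were 14.7 ± 5.87 CPM per kilobase for Cry1, 7.41 ± 2.40 for Per2, 6.60 ± 1.22 for Cry2, 5.31 ± 3.14 for Per1 and 5.17 ± 0.389 for Clock (SD, n = 3). Npas2 followed at 2.75 ± 1.13, Per3 at 1.24 ± 0.968, Nr1d2 at 1.20 ± 0.925, Dbp at 1.62, 0 and 0 in the 3 libraries, and Nr1d1 at 0.476 ± 0.495. Among 24343 genes with an exon length, these means ran from percentile 55.7 for Nr1d1 to percentile 89.3 for Cry1. Of the 9 neighbouring pairs in this order, the ranges over the libraries did not overlap for Cry1 and Per2 or for Clock and Npas2, and overlapped for the other 7. Among Per2, Cry2, Per1 and Clock the ranges of Cry2 (5.56 to 7.94) and Clock (4.76 to 5.53) did not overlap, narrowly, and those of the other pairs did. With the longest annotated transcript in place of all exons, Cry2 was at 10.5 CPM per kilobase, above Per2 at 7.44, and Clock was at 7.29, above Per1 at 6.41, while Cry1 still had the highest mean at 16.2. Without library 2 the mean of Nr1d1 was 0.211, and without library 1 that of Dbp was 0.

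**Figure D2:**
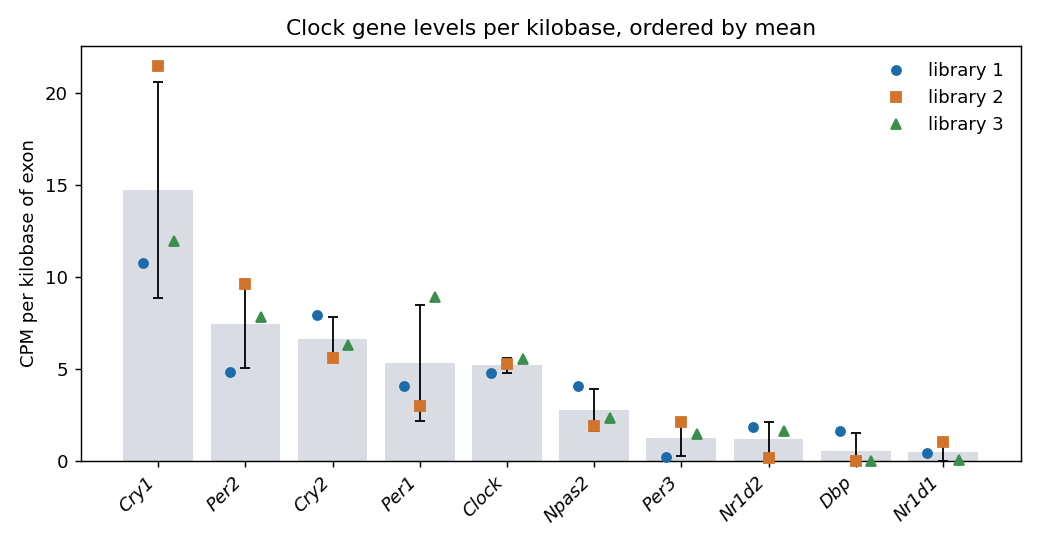
CPM per kilobase of annotated exon for the clock genes, ordered by mean: bars are means, error bars 1 SD (stopped at 0) and symbols the 3 libraries. Cry1 has the highest symbol of any member in each library, the range of Per2 spans that of Cry2, and the range of Per1 spans that of Clock.

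Within-library differences between relatives, and between factors known for opposed phases, were taken for 8 pairs on the log2(CPM per kilobase + 0.5) scale. With 3 libraries the exact sign-flip permutation test cannot go below p = 0.25 (two-sided), so no pair could pass 0.05. After Benjamini-Hochberg adjustment over the 8 pairs, the 6 pairs with 1 sign in all libraries had exact permutation p = 0.333 and the other 2 had p = 0.5. Clock exceeded Npas2 by 0.86 ± 0.56 (SD, n = 3), in 3 of 3 libraries. Cry1 exceeded Cry2 by 1.05 ± 0.74, also in 3 of 3, but by 0.56 per kilobase of the longest transcript and by 0.18 without division by length, each in 2 of 3 libraries, and by 0.64 without library 2.

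Among the Per genes, Per2 exceeded Per3 by 2.34 ± 0.55 and Per1 exceeded Per3 by 1.81 ± 1.21, each in 3 of 3 libraries. Per1 exceeded Per3 in 2 of 3 libraries when CPM were not divided by length. Per1 minus Per2 was -0.53 ± 0.89, with Per1 the higher gene in library 3 only, and it moved to -0.02 without library 2. Per kilobase of the longest transcript, Per1 was the higher in 2 of 3 libraries, by 0.01 in library 1. Nr1d1 minus Nr1d2 was -0.72 ± 1.72, positive in library 2 only, and it was -0.39, -1.70 and -0.07 without library 1, 2 or 3. In neither pair was 1 gene the higher in all libraries.

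The remaining pairs set a daytime gene against a late-night gene. Nr1d1 minus Npas2 was -1.81 ± 0.98 and Dbp minus Nfil3 -4.88 ± 0.99, each negative in 3 of 3 libraries. Nfil3 (E4BP4) encodes the repressor that competes with DBP at D-boxes. It stood at 58.4, 52.4 and 34.7 CPM, against 4.85, 0 and 0 CPM of Dbp. The size of the second difference rests on the pseudocount, and was -6.51 with a pseudocount of 0.1.

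Among other transcription factors of the clock loops, ranked here and in the following lists by CPM without correction for length, 5 of 9 were detected: Bhlhe40 (83.7 ± 12.3 CPM, SD, n = 3), which encodes the repressor DEC1, Nfil3 (48.5 ± 12.3), the D-box activators Hlf (26.2 ± 7.62) and Tef (16.03 ± 7.87), and the RORE activator Rora (15.1 ± 3.44). The share of all genes detected was 35.0%. Bhlhe41, the DEC1 relative, had 2 counts in all and the E-box repressor gene Ciart had 1. Rorb was at 2.11, 0.396 and 2.50 CPM. Arntl2, which encodes a partner of CLOCK, had 136 counts in library 1 and 0 in the others, the same pattern as Dbp.

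The D-box factors and Per3, whose window carries both D-boxes shown above, can be set side by side. Library 1 was the lowest of the 3 for Per3 (1.73 CPM, against 19.9 in library 2 and 14.2 in library 3). It was also the lowest for Hlf (17.4 CPM, against 31.2 and 30.0) and Tef (10.4 CPM, against 12.6 and 25.04), and the highest for the repressor gene Nfil3 (58.4 CPM, against 52.4 and 34.7). Dbp went the other way, with its counts in library 1 alone. With 3 libraries these are values side by side, and no relation between them was tested.

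**Figure D3:**
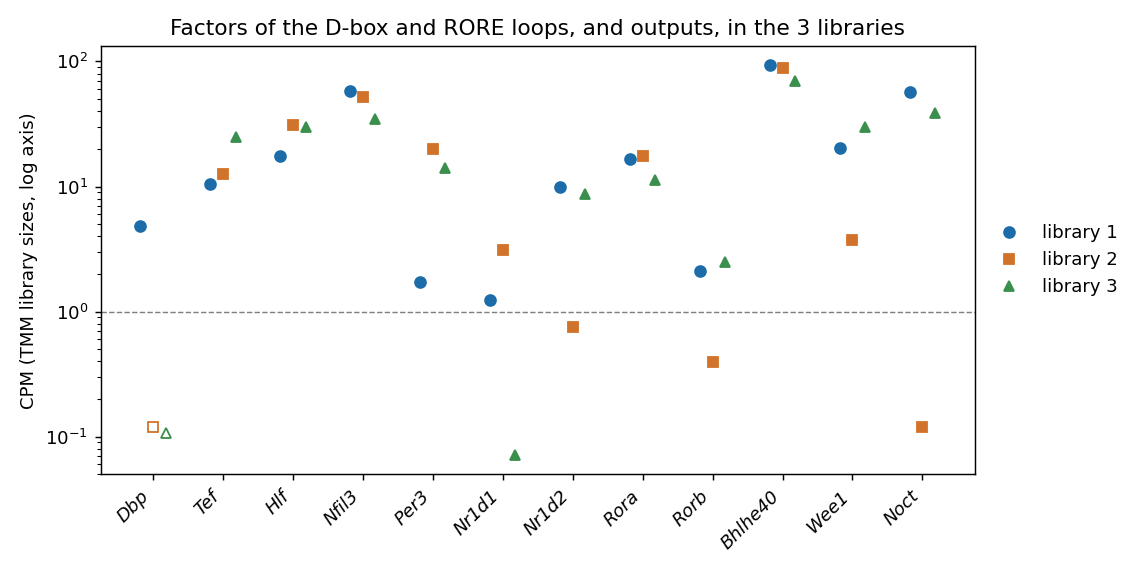
CPM (TMM library sizes, log axis) in libraries 1 (circles), 2 (squares) and 3 (triangles) of D-box factors, RORE factors, Bhlhe40 and the outputs Wee1 and Noct; the dashed line is 1 CPM and open symbols mark 0 counts, drawn at the CPM of 3 counts. Library 2 is far below the others for Noct, at 0.119 CPM, and lowest for Nr1d2, Rorb and Wee1.

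Each library was tested against the other 2 over 13289 genes with edgeR's quasi-likelihood test, and no gene passed a Benjamini-Hochberg adjusted p of 0.05, so the share called was 0.00% in each comparison and 0 of 10 members were called, which does not show that their levels were equal. Below an unadjusted threshold of 0.05 that test had 511, 659 and 674 genes for libraries 1, 2 and 3, among them 1 member, Dbp in library 1 (edgeR's quasi-likelihood test, adjusted p = 0.994). DESeq2's Wald test called 124, 209 and 223 genes (1.06%, 1.86% and 2.03% of those given an adjusted p), and also 0 members. It gave no adjusted p to Nr1d1 and Dbp in libraries 2 and 3, so they could not be called there. The member with the smallest adjusted p by DESeq2 was Per3, at a log2 difference of library 1 from the others of -3.29 with an SE of 1.27 (DESeq2, adjusted p = 0.275).

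The members' spread between libraries ranged from 0.11 for Clock to 1.97 for Dbp. The median SD of log2(CPM + 0.5) was 0.67 over the 10 members, beside 0.63 over all 13289 tested genes. For the 7 members of 10 to 100 CPM it was 0.53, beside 0.52 for the 6187 tested genes of that class. For Nr1d1, Nr1d2 and Dbp, under 10 CPM, it was 1.72, beside 1.13 for the 5341 tested genes of that class. The median of all tested genes changed with level within that class. Near 1.33 CPM it was 1.46, against 1.34 for Nr1d1 and 1.97 for Dbp. Near 7.50 CPM it was 0.98, against 1.72 for Nr1d2. A highest CPM at least 10-fold above the lowest was seen in 4 of the 10 members (Per3, Nr1d1, Nr1d2 and Dbp), beside 23.0% of the 12578 genes at 1 CPM or more in some library, and that fold was chosen after the values were seen. Among genes at 10 CPM or more in the highest library it was seen in 1 of 7 members, Per3, beside 8.93%. Nr1d2, at 13.3-fold, fell just short of that level, with 9.99 CPM in its highest library. Members just inside and outside the 10-fold line were Per3 at 11.5-fold and Per1 at 2.97-fold.

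**Figure D4:**
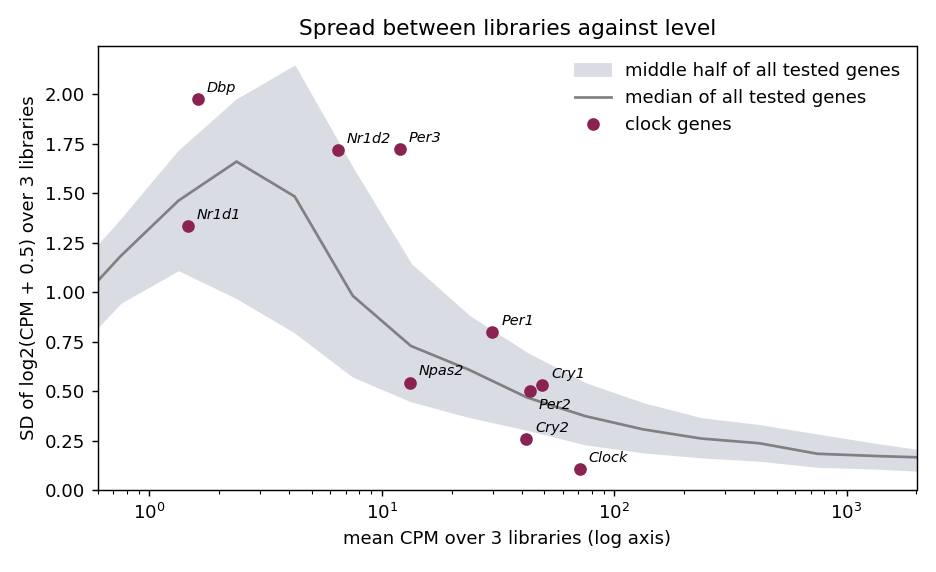
SD of log2(CPM + 0.5) over 3 libraries against mean CPM (log axis) for the clock genes (points), with the median (line) and the middle 50 percent (band) of all tested genes by level. Clock lies below the band at 0.11 and Per3 above it at 1.72; Cry2 also lies below the band and Dbp above it.

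Of 13 genes listed for the turnover of clock proteins, most of which encode enzymes, 11 were detected, beside 35.0% of all genes. The casein kinase gene Csnk1a1 was the highest at 223 ± 13.5 CPM (SD, n = 3), followed by the ubiquitin ligase genes Huwe1 (97.8 ± 26.3) and Fbxw11 (86.9 ± 15.98) and the kinase genes Gsk3b (86.0 ± 20.6) and Csnk1d (63.6 ± 21.5). The undetected members were Fbxl21, with 87 counts in library 1 and 0 in the others, and Timeless, with 39, 0 and 62 counts. Fbxl21 thus had the same pattern over libraries as Dbp and Arntl2. Markers outside the clock had it too, such as Hbb-bs (66 counts in library 1) and Lyz2 (25). Library 1 was the deepest, with 16813 genes that had a count, against 15190 in library 2 and 15630 in library 3.

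Of the chromatin partners of the clock, 13 of 14 were detected, beside 35.0% of all genes. The highest were Sfpq (242 ± 73.8 CPM, SD, n = 3), which encodes a PER-associated RNA-binding repressor, and the REV-ERB corepressor gene Ncor1 (139 ± 34.0), followed by the demethylase gene Kdm5a (88.9 ± 33.9), the acetyltransferase gene Kat2b (86.1 ± 32.1) and the methyltransferase gene Kmt2a (82.8 ± 26.1). Tbl1x, which encodes a subunit of the NCoR complex, was the undetected one, at 0.378, 1.27 and 2.04 CPM.

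Of 12 genes known as clock outputs, 11 were detected, beside 35.0% of all genes. The highest were the glucocorticoid-induced Tsc22d3 (197 ± 23.1 CPM, SD, n = 3), Klf10 (125 ± 80.2), the NAD synthesis gene Nampt (105 ± 8.36), the electron donor gene Por (77.7 ± 14.1) and Gpcpd1 (51.4 ± 25.3). Noct, which encodes nocturnin, was the undetected one, with 3 counts in library 2, against 1796 in library 1 and 1074 in library 3. In library 2 against the others, its log2 difference was -8.59 by edgeR, whose quasi-likelihood test it did not pass. By DESeq2 it was -8.65 with an SE of 1.14, and Noct passed the Wald test. Both tests take the spread of the lone library from the other 2. With 3 counts in library 2, the ratio of library 1 to library 2 was 476 (95% exact counting interval 163 to 2310). Wee1, a cell-cycle kinase gene and E-box target in mouse liver, was also lowest in library 2, at 3.76 CPM against 20.5 in library 1 and 30.1 in library 3, and did not pass (edgeR's quasi-likelihood test, adjusted p = 0.977).

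Genes through which hormones and signals reach the clock were all detected, 12 of 12, beside 35.0% of all genes. The glucocorticoid receptor gene Nr3c1 (355 ± 78.7 CPM, SD, n = 3) and the receptor target Klf9 (207 ± 40.9) were the highest, then the cyclic AMP response factors Creb1 (100.2 ± 24.5) and Atf1 (71.5 ± 26.9) and the coactivator gene Crtc3 (63.7 ± 9.70). Immediate-early and stress genes, which tissue digestion is known to induce, were high in all libraries: 18 of 19 were detected, with a summed level of 21954 CPM in library 3, against 19106 in library 1 and 23347 in library 2. Library 2 thus had the highest sum. Without Hspa1a and Hspa1b the sums were 15563, 17195 and 18169 CPM in libraries 1, 2 and 3, and library 3 had the most Per1. Those 2 genes nearly share a sequence, so their separate values are uncertain, and leaving them out was chosen after the values were seen. Of the other detected genes of the list, Egr2, Dusp1, Nr4a1 and Btg2 were highest in library 1. Fos, Atf3 and Ier3 were highest in library 2, and the rest in library 3. Egr2 was at 5.71 CPM in library 3, against 55.0 in library 1 and 51.6 in library 2. Fos (6574 ± 557 CPM), Hspa1b (3461 ± 1061) and Egr1 (2953 ± 200) led the list, and its part in the level of Per1 was not tested.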

How the data were processed

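RNA was counted in 3 libraries of 1 group of sorted cells. Full-length cDNA was amplified with a Clontech SMARTer V4 kit for low input, per the labels' protocols. Per the submitters' processing notes, CASAVA 1.8.2, STAR 2.3.0 and the build mm10 were used. How reads were counted, with which annotation and filters and whether by strand, is not given in the sources used here. In the deposited table are raw read counts, all whole numbers, for 27179 NCBI gene IDs, of which 25275 matched the RefSeq table of GRCm38.p6.

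CPM were calculated here on TMM library sizes (edgeR 4.0.16, R 4.3.3), with a pseudocount of 0.5 on log2 scales. Exon lengths came from GENCODE M21. The quasi-likelihood test of edgeR compared each library with the remaining 2, for genes with 10 counts or more in some library. It assumes that a single library varies like the rest. On simulated data it missed many of the changes made at 10 to 100 CPM, and no change was made under 10 CPM. DESeq2 1.42.0 was an alternative. A BLAST 2.17.0 search (90% identity) found 0 other transcripts matching over 50% of a member's longest transcript.

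The members and gene lists were chosen with earlier results of these data known. Named are all members and up to 5 genes of each clock list with the highest mean CPM (3 of the immediate-early list). Also named are clock-list genes under 1 CPM in a library and markers needed for a count. Wee1, Thra, Sphk2, Hbb-bs, Lyz2, Hba-a2 and the cell-type markers named as above 1 CPM in a library were added after their values were seen. So were Egr2, Dusp1, Nr4a1, Btg2, Atf3 and Ier3 of the immediate-early list. Not every clock gene is reported here.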

Additional observations from a re-analysis of the deposited data

How the results depend on the processing

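The 7 detected members became 4 at 20 CPM, and were 7 to 8 when each library was left out in turn. The members whose highest library was at least 10-fold above the lowest numbered 4, and 1 among genes at 10 CPM or more in the highest library, a setting chosen after seeing the data. The calls over all genes were 0 in each library with edgeR's quasi-likelihood test. For libraries 1, 2 and 3 they were 124, 209 and 223 with DESeq2's Wald test and 16, 16 and 36 with no filter on low counts. The cause of these differences was not tested. No member was called under any of these settings, though DESeq2 gave no adjusted p to Nr1d1 and Dbp in libraries 2 and 3. The other 34 alternatives of summary counts and medians stayed within 1.5 times or within 1 SD between libraries. For the median spread, the SD was taken between the members instead. For single genes, pairs and the immediate-early sum, 196 alternatives stayed within 1 SD or, for tests, on the same side of the threshold, and 9 moved by more. These were Clock (7.29) and Cry2 (10.5) per kilobase of the longest transcript; without division by length Clock minus Npas2 (2.46), Cry1 minus Cry2 (0.18) and Nr1d1 minus Npas2 (-3.09); Dbp minus Nfil3 with a pseudocount of 0.1 (-6.51); and the immediate-early sums of the 3 libraries without Hspa1a and Hspa1b, an alternative chosen after seeing the data. Leaving out 1 of 3 libraries cannot shift a mean by as much as 1 SD, so for single genes and pairs it could not count as moved. Among such alternatives, Dbp per kilobase went from 0.540 to 0 without library 1, and Nr1d1 from 0.476 to 0.211 without library 2. No mean pair difference changed sign, but differences in single libraries did. The pairs with 1 sign in all libraries numbered 6, and were 5 per kilobase of the longest transcript and 4 without division by length. No paired analysis was possible because the labels give 1 group. Leaving out a library leaves 1 against 1 for the tests between libraries, with no residual degrees of freedom, so no such test was run. Nr1d1 in library 3 and Dbp in libraries 2 and 3 lie at or under the limit of 3 counts, where depth decides what can be seen.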
